A study of Arabidopsis thaliana with 50 samples.

Results

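The comparison set apical leaf parts of the Arabidopsis thaliana line pp2a-b'γ sid2 against apical leaf parts of wild-type Col-0 plants, with 5 pools in each group, or 10 of the 50 samples of the series. It was read over all 18231 genes that the authors' deposited table lists, each with its deposited log2 fold change of b'γ sid2 over wild type. Plants of both groups were 7 weeks old and had grown under an 8 h light period at 130 µmol photons per square metre and second, 22 °C and 50% humidity. Each pool held the apical parts of 7 fully expanded rosette leaves, the pools are described as biological replicates, and stranded mRNA libraries were sequenced. The series also holds b'γ, b'γζ and a b'γ line that carries PP2A-B'γ under the 35S promoter, and the basal parts of the same leaves. In b'γ the apical parts were yellowing with cell death, per the labels, which do not describe the leaves of b'γ sid2 and name no allele. The time of day of the harvest is not given in the sources used here.

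PP2A is a protein phosphatase built from a scaffold, a catalytic and a regulatory B subunit, and B'γ is a regulatory subunit known as a brake on defence and on ageing in Arabidopsis leaves. SID2 encodes isochorismate synthase 1 (ICS1), the enzyme that starts the main route to the defence hormone salicylic acid. Salicylic acid and jasmonate, which drives wound and insect defence, are known to hold each other's responses back, and the salicylic acid markers PR1 and PR2 and the jasmonate markers VSP1 and PDF1.2a are used to read the balance between them.

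The table gives 1 log2 fold change per gene and line and no value per library, so no standard deviation between pools can be shown. A gene was said to rise or fall where its change was at least 2-fold, a log2 value of 1 or more in size, and where it passed a test at an adjusted p under 0.05 that used the largest standard error the deposited p-values allow. The test is a contrast over the variance of all 50 libraries and not an exact test, which would need values per library. The largest error is an upper limit only if the deposited p-values come from the layout of line and leaf part assumed here. A gene that failed the test may still have changed. In b'γ sid2, 458 genes rose (2.51% of those listed) and 463 fell (2.54%). With the 2-fold limit alone, 1194 genes were higher (6.55%) and 1014 lower (5.56%), so 736 and 551 genes past 2-fold did not pass the test. The median log2 fold change was 1.53 among genes that rose, with a median largest error of 0.325, and −1.51 among those that fell, with 0.276. Over all listed genes it was 0.02. Of the genes that rose, 128 were at least 4-fold and 46 at least 8-fold higher, and of those that fell, 106 and 23 were lower by as much. All 4 lines were compared with the same 5 wild-type pools, so values of the other lines given beside those of b'γ sid2 are not independent of them. In bulk leaf RNA, fewer cells of a type and less RNA per cell cannot be told apart.

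The targeted genes were read first. The deposited log2 fold change of B'γ was −0.72 in b'γ sid2 (largest error 0.0618, largest-error test adjusted p of 6.51e-12), which passed the test but not the 2-fold limit. The mutants b'γ and b'γζ had −0.69 and −0.46 for the same gene, and the complemented line 0.35. For ICS1 the table gives −0.97 (largest error 0.874, largest-error test adjusted p of 1) against 3.18 in b'γ. The sid2 target passed neither limit against wild type, and its difference from b'γ of −4.15 passed the same test (adjusted p of 4.61e-04). B'ζ, the subunit that is mutated in b'γζ, was listed at −0.51 in b'γ sid2 and at −2.59 in b'γζ in the deposited table. Of the 19 genes of PP2A subunits and targets on the list, 17 are in the table, with deposited values between −0.97 and 0.17.

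Jasmonate genes made up 4 of the 10 largest changes that passed. The 2 largest deposited values were those of the plant defensins PDF1.2c at 8.77 and PDF1.2a at 8.74, and VSP1, a vegetative storage protein with anti-insect phosphatase activity, and JOX4, which oxidises jasmonic acid, were the others. Jasmonate synthesis starts from lipids of the chloroplast: the lipoxygenase LOX2 rose by 1.94 (deposited log2 fold change, largest error 0.404, largest-error test adjusted p of 6.7e-04) and its value in b'γ was 0.19. Of the 12 listed synthesis genes, 6 were at least 2-fold higher, LOX2 alone passed the test, and the lowest value was 0.01. The lipase DAD1 had a deposited value of 2.70 (largest-error test adjusted p of 0.0601), and the allene oxide synthase AOS 1.16 and the cyclase AOC1 1.35 were also past 2-fold without passing. The median of the 12 deposited values was 1.07, against 0.02 for all listed genes.

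Enzymes that inactivate jasmonates were higher almost throughout the list. Of 10 listed genes, 9 were at least 2-fold higher in the deposited table, 4 of them rose, none was lower, and the median was 1.88. JOX4 rose by 6.17 (largest error 1.51, largest-error test adjusted p of 0.00449). CYP94B1, which hydroxylates the active conjugate jasmonoyl-isoleucine, rose by 3.91 in the deposited table against 0.62 in b'γ. The amidohydrolases IAR3 and ILL6, which cleave that conjugate, rose by 1.76 and 1.31. JOX4, IAR3 and ILL6 stood at 3.8, 2.77 and 1.25 in b'γ. The values in b'γζ and the complemented line were 3.67 and 4.02 for JOX4 and 3.59 and 3.74 for CYP94B1. For IAR3 they were 1.71 and 1.6, and for ILL6 1.33 and 1.2. JOX3 stood at 3.08 and the carboxyl methyltransferase JMT at 1.99 in the deposited table without passing, and in b'γ their values were 8.06 and −1.07. The differences between the lines passed the test for both, in opposite directions.

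JAZ proteins repress jasmonate responses and are themselves induced by the hormone. Among the 13 listed JAZ genes, 8 were at least 2-fold higher in the deposited table and 3 rose: JAZ5 by 2.52, JAZ9 by 1.32 and JAZ2 by 1.15. JAZ10 at 3.11 and JAZ13 at 2.71 had the largest values of the family but did not pass (largest-error test adjusted p of 0.109 and 0.195). JAZ11, JAZ12, JAZ3 and JAZ4 lay between −0.26 and 0.29. The median of the family's deposited values was 1.32 in b'γ sid2 and 1.06 in b'γ, and for JAZ5, JAZ9 and JAZ2 the values in b'γ were 2.84, 0.81 and 1.06. In b'γζ the same genes had 3.06, 1.08 and 1.52, and in the complemented line 2.36, 1.36 and 1.23.

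The response to jasmonate has a MYC branch for wounding and insects and an ERF branch, shared with ethylene, for fungi. In the MYC branch, 3 of 12 listed genes rose: the factor MYC2 by 1.57, VSP1 by 6.80 (largest error 1.11, largest-error test adjusted p of 1.46e-05) and the acetyltransferase NATA1 by 4.18. In b'γζ and the complemented line, MYC2 had 1.39 and 1.43, VSP1 2.60 and 1.52, and NATA1 1.39 and 2.50. VSP2, a close copy of VSP1 with which it may share reads, had a deposited value of 3.09 without passing (adjusted p of 0.22), and in b'γ the values of VSP1 and VSP2 were 3.04 and −0.86. The NAC factor ANAC055, a target of MYC2, went the other way from the branch with a deposited value of −1.19 that did not pass, beside 6.11 in b'γ. In the ERF branch, 8 of 9 listed genes were past 2-fold and 4 rose: PDF1.2c, PDF1.2a, the thionin THI2.1 by 4.14 and the hevein-like PR4 by 3.60. PDF1.2a had a largest error of 1.27 and PDF1.2c of 2.23 (largest-error test adjusted p of 1.77e-06 and 0.00634). PDF1.3 at 5.86 and PDF1.2b at 4.97 did not pass, and PDF1.2b lay at the lowest recurring value in wild type, so its fold is not a bound. The defensin copies are near-identical and lie side by side or close, and how reads shared by copies were counted is not given in the sources used here. In b'γ the deposited values were 5.64 for PDF1.2a, 3.89 for PDF1.2c and 5.65 for PR4, and these 3 genes did not pass the test of the difference between the lines (adjusted p of 0.0958, 0.148 and 0.0691). For THI2.1 the deposited b'γ value was 0.13, and the difference passed (4.01, adjusted p of 0.0301). The regulator ERF1, in contrast, was at 0.47 and below its value of 2.92 in b'γ. In b'γζ and the complemented line, PDF1.2a had 4.05 and 2.13, and PDF1.2c 2.42 and 1.24. THI2.1 had 2.14 and 1.08 there, and PR4 0.74 and 1.09.

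**Figure D1:**
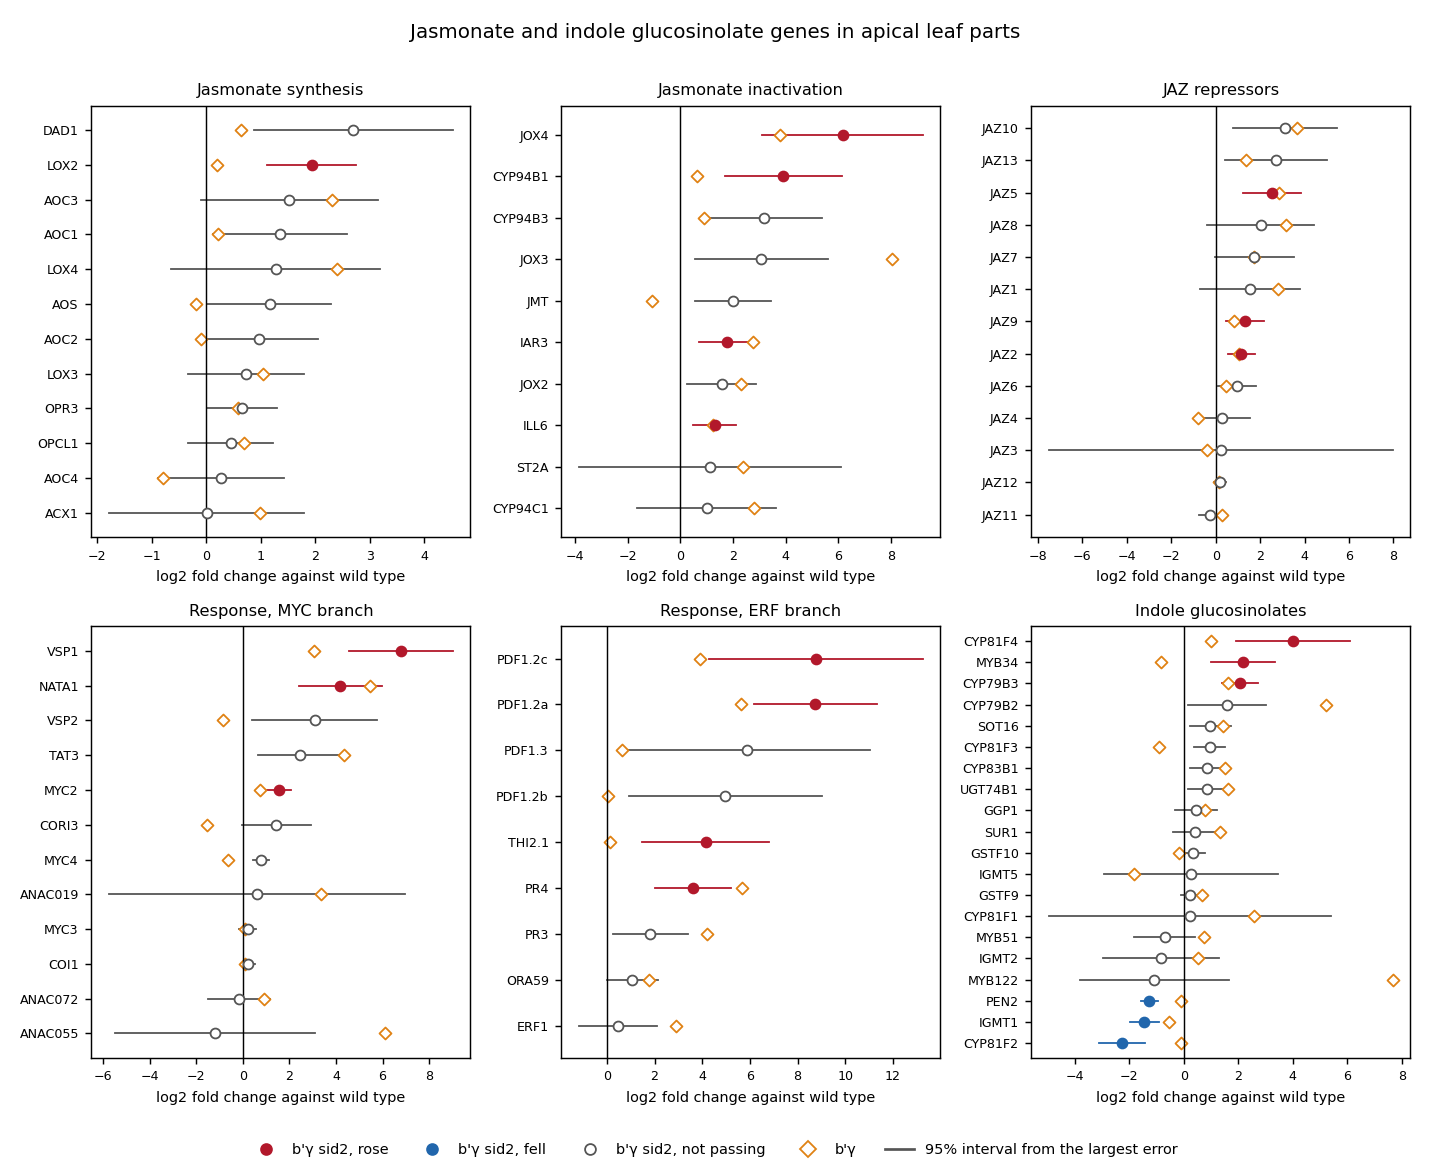
Deposited log2 fold changes against wild type (x axis) of each listed gene (rows) of 5 jasmonate lists and of indole glucosinolates in b'γ sid2 (circles, filled where the gene rose or fell) and b'γ (diamonds), with lines for the 95% interval from the largest error. PDF1.2c at 8.77, PDF1.2a at 8.74, VSP1 at 6.80 and JOX4 at 6.17 stand farthest to the right among the b'γ sid2 values.

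The promoters of jasmonate genes are shown because 2 motifs are known in them: the G-box CACGTG, bound by MYC factors, and the GCC box GCCGCC, bound by ERF factors. Windows are the 250 bases before the gene start in the RefSeq annotation of TAIR10.1, written 5′ to 3′ on the gene's strand, with motif matches on either strand in capitals. PDF1.2a (minus strand, chr5:17907639-17907888) has a GCC box that starts 222 bases before the gene, and JAZ2 (minus strand, chr1:28150447-28150696) a G-box 66 bases before it.
PDF1.2a: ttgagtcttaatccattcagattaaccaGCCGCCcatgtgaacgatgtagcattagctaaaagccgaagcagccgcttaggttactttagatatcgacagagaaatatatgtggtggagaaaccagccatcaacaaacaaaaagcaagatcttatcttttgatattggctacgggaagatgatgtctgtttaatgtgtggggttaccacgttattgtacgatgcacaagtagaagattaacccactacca
JAZ2: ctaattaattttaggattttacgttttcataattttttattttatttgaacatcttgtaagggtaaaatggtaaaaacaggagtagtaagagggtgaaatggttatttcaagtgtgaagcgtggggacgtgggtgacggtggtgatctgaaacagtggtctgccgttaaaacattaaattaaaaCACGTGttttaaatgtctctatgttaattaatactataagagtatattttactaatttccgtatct
A G-box was found in 5 of 13 JAZ promoters (38.5%) and a GCC box in 3 of 9 promoters of the ERF branch (33.3%), against 7.62% and 1.92% of the 17459 listed protein-coding genes with a window. The exact 95% binomial intervals of the list shares are wide, 13.9 to 68.4% and 7.49 to 70.1%, and with windows of 150 bases the GCC box was in 1 of the 9 (11.1%). The G-box was in 1 of 12 promoters of the MYC branch (8.33%) and in 0 of 10 of jasmonate inactivation (interval up to 30.8%). These shares count list members that did not rise as well. Of the jasmonate list members that rose, JAZ2 alone has a G-box and PDF1.2a alone a GCC box in the window. Over the 442 windows of genes that rose, the shares were 11.5% for the G-box and 2.26% for the GCC box. A match describes the letters of a window and is not a measured binding site.

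Indole glucosinolates, sulfur-rich defence compounds made from tryptophan, split into steps that rose and steps that fell. MYB34, a factor that activates their synthesis, rose by 2.19 in the deposited table, with −0.82 in b'γ and a difference that passed (3.01, largest-error test adjusted p of 1.36e-04). Both b'γζ and the complemented line had 1.3 for MYB34. CYP79B3, which makes the first committed intermediate, rose by 2.07, and CYP81F4, which leads to the 1-methoxy side chain, rose by 4.01 (largest error 1.03, adjusted p of 0.00695). The genes that fell belong to the 4-methoxy route and to breakdown: CYP81F2 fell by 2.26, the methyltransferase IGMT1 by 1.44 and the myrosinase PEN2 by 1.26. In all, 3 of 20 listed genes rose and 3 fell, with a median of 0.39. Of the 17 listed aliphatic glucosinolate genes, MAM3 alone passed 2-fold, with a deposited value of −2.19 that missed the test (adjusted p of 0.0778), and the median was 0.17.

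Among clock genes, 7 of 17 fell, 1 rose and 9 did neither. Circadian clocks of plants are loops of factors with set times of day: CCA1 and LHY in the morning, PRR9, PRR7 and PRR5 in sequence through the day, and the evening genes TOC1, GI and LUX. The 1 that rose was RVE1, a morning factor tied to auxin, by 2.34. RVE1 stood at 2.29 in b'γ, and the difference of 0.05 did not pass. Its values in b'γζ and the complemented line were 0.27 and 0.46. PRR5 fell by 2.90 (deposited log2 fold change, largest error 0.121, largest-error test adjusted p of 2.84e-21). PRR9 fell by 2.76, CCA1 fell by 2.04, LHY fell by 1.38 and PRR7 fell by 1.08 in the same table. FKF1, a blue-light receptor of the photoperiod pathway, fell by 1.91 (largest error 0.0987, adjusted p of 2.47e-18), and LNK2, a partner of morning factors, fell by 1.65. The same 7 genes had deposited values between −0.38 and 0.46 in b'γ, and each differed from b'γ by the test of the difference, PRR5 by −3.33 (adjusted p of 3.41e-23). The evening genes were nearer to 0, with GI at −0.59 (adjusted p of 7.06e-04), TOC1 at −0.51 (adjusted p of 6.55e-05) and LUX at −0.54 (adjusted p of 0.5), and the median of the list was −0.66. PRR5 was also low in the deposited values of b'γζ, −1.82, and of the complemented line, −1.51, as was PRR9 at −1.43 and −1.51. The value of b'γ sid2 was thus the lowest of the 4 lines for these 2 genes, and that of b'γ the highest. CCA1 had −1.16 in b'γζ and −1.27 in the complemented line.

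The evening element AAAATATCT is a motif to which clock factors of the CCA1 family are known to bind. Promoter windows of 4 genes that fell show it or the G-box: PRR5 (minus strand, chr5:8358547-8358796) and FKF1 (plus strand, chr1:25508389-25508638) have an evening element 187 and 186 bases before the start, AT1G20030 (plus strand, chr1:6945175-6945424), a thaumatin-like gene among the 10 with the lowest values, has one at 73 bases, and PRR9 (plus strand, chr2:19232357-19232606) has 2 G-boxes, at 244 and 172 bases. Capitals mark the matches, on either strand, in TAIR10.1.
PRR5: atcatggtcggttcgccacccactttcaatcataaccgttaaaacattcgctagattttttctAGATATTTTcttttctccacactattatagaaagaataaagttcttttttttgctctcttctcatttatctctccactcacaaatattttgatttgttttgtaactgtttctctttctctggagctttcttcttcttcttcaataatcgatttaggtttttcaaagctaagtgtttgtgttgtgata
FKF1: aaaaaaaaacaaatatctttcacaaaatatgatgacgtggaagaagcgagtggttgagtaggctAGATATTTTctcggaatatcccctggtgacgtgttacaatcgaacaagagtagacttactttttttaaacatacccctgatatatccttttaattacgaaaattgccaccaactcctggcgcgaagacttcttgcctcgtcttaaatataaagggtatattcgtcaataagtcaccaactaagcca
AT1G20030: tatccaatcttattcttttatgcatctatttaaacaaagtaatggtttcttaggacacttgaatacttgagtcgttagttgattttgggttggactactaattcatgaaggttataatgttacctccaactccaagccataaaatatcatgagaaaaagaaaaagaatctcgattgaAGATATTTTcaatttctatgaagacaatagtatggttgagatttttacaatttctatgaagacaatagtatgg
PRR9: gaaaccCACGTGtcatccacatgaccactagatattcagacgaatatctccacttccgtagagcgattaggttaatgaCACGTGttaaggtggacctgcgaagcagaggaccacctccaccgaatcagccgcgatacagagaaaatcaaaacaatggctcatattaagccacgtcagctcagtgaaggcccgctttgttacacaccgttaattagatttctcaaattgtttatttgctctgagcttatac
Among the 435 windows of genes that fell, 59 held an evening element, or 13.6% (exact 95% binomial interval 10.5 to 17.1%). The share was 2.26% of the windows of genes that rose (1.09 to 4.12%), 2.71% of those of listed genes and 2.36% of the 27443 windows of all protein-coding genes. It was 13.9% in the 165 windows of genes that fell and lay below b'γ and 13.3% in the 270 windows of the other genes that fell. Besides clock genes, AT1G71000, a DnaJ-domain chaperone with a deposited value of −3.97, has 2 evening elements, and ATMYBL2, a repressor of anthocyanin synthesis, fell by 2.73 with 1. For the other 3 motifs the shares lay closer together: the G-box was in 8.97%, the GCC box in 1.15% and the W box (TTGACC or TTGACT), known for WRKY factors, in 24.6% of the windows of genes that fell, against 7.62%, 1.92% and 28.6% of those of listed genes. With windows of 150 bases, the evening element was in 8.97% of genes that fell and 1.74% of listed genes. In the clock list, 4 of 17 windows held an evening element (23.5%, exact 95% binomial interval 6.81 to 49.9%) and 6 a G-box (35.3%, 14.2 to 61.7%). With 150 bases, 1 and 2 of the 17 did. Of the clock genes that fell, PRR5 and FKF1 alone have an evening element in the window.

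**Figure D2:**
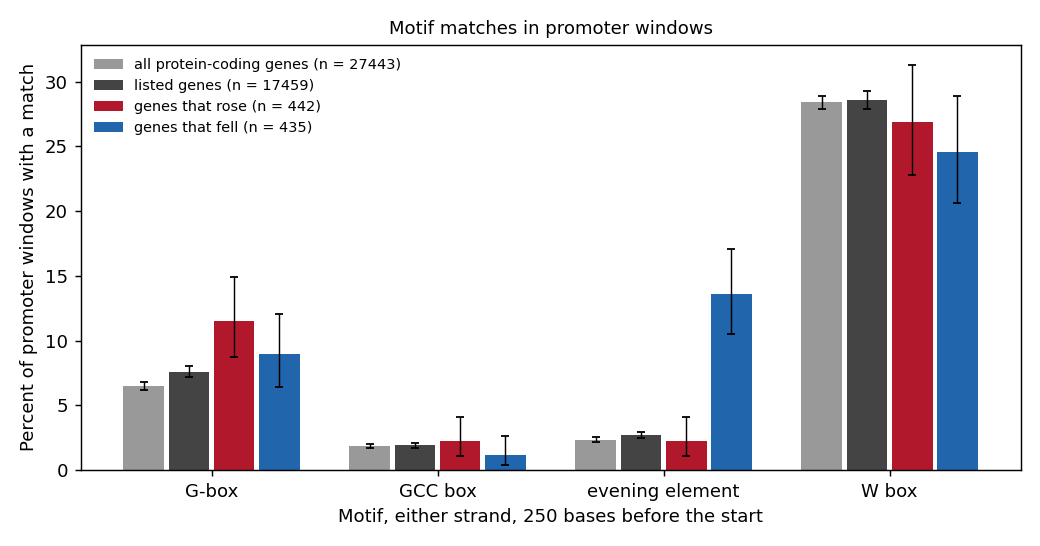
Percent of promoter windows (y axis) with a match to each of 4 motifs (x axis) for all protein-coding genes, listed genes, genes that rose and genes that fell, with exact 95% binomial intervals. The evening element was found in 13.6% of windows of genes that fell and in 2.71% of those of listed genes.

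Of 11 listed cold-response genes, 6 fell, and 1 of them had the lowest value of the comparison. GOLS3, a galactinol synthase that makes the precursor of raffinose sugars and is a target of CBF factors, had the lowest deposited value of all listed genes, −4.98 (largest error 0.447, largest-error test adjusted p of 1.89e-11). The 3 CBF factors, which switch on cold-regulated genes and lie next to each other on chromosome 4, fell by 3.39 (CBF2), 3.15 (CBF1) and 3.09 (CBF3) in the deposited table. The dehydrin COR47 fell by 2.55 and RD29A by 2.54. GOLS3 was also low in the deposited values of b'γ, −3.66, of b'γζ, −2.3, and of the complemented line, −2.07. The median of the list was −2.54, beside −2.21 in b'γ with 10 of 11 genes past 2-fold lower, and DDF1 alone had a value above 0 (1.01, adjusted p of 1). COR15A at −1.08 and COR15B at −1.56 did not pass, and for COR15A the value in b'γ was lower still, −3.89, with a difference that passed. The CBF factors had deposited values of −1.54 to −1.63 in b'γ, and of the 3 CBF3 alone differed between the lines (−1.55, adjusted p of 3.06e-07). Their values were −1.71 to −1.73 in b'γζ and −1.47 to −1.98 in the complemented line. Of the 11 cold-response promoter windows, 3 held a G-box (27.3%) and 1 a W box (9.09%), against 7.62% and 28.6% of those of listed genes. CBF2 (minus strand, chr4:13016236-13016485, TAIR10.1) has a G-box 102 bases and a W box 185 bases before its start, in capitals.
CBF2: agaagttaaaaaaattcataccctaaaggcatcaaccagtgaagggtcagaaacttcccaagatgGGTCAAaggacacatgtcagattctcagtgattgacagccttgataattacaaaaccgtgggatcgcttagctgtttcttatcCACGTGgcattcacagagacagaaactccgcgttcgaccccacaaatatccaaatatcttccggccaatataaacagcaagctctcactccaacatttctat

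Genes for a pair of chlorophyll-binding proteins of the trimeric antenna fell. LHCB2.1 fell by 3.0 (largest error 0.39, largest-error test adjusted p of 1.72e-07) and its near-identical copy LHCB2.2 by 2.64 in the deposited table. Of 18 listed antenna genes, 8 were at least 2-fold lower, these 2 passed, and the median was −0.85. In b'γ the median of the antenna list was −1.68, with 16 of the 18 genes at least 2-fold lower. The deposited corrected p of the interaction was under 0.05 for 16 of the 18. The 30 listed genes of the photosystems and carbon fixation had a median of −0.24 in b'γ sid2 and −1.37 in b'γ, and lay between −1.12 (PSAO) and 1.2 (RBCS2B). For all 30 the deposited corrected p-value of the interaction of genotype and leaf part was under 0.05, and their largest errors in b'γ sid2 were 0.371 to 3.71. Markers of phloem lay between −0.52 and 0.22, of epidermis between 0.01 and 0.30 and of guard cells between −0.77 and 0.65 in the deposited table, all under 2-fold. Of these, SUC2 at −0.52 and FAMA at 0.65 passed the error test (adjusted p of 0.00141 and 3.7e-04), and the 4 epidermis markers lay above b'γ.

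**Figure D3:**
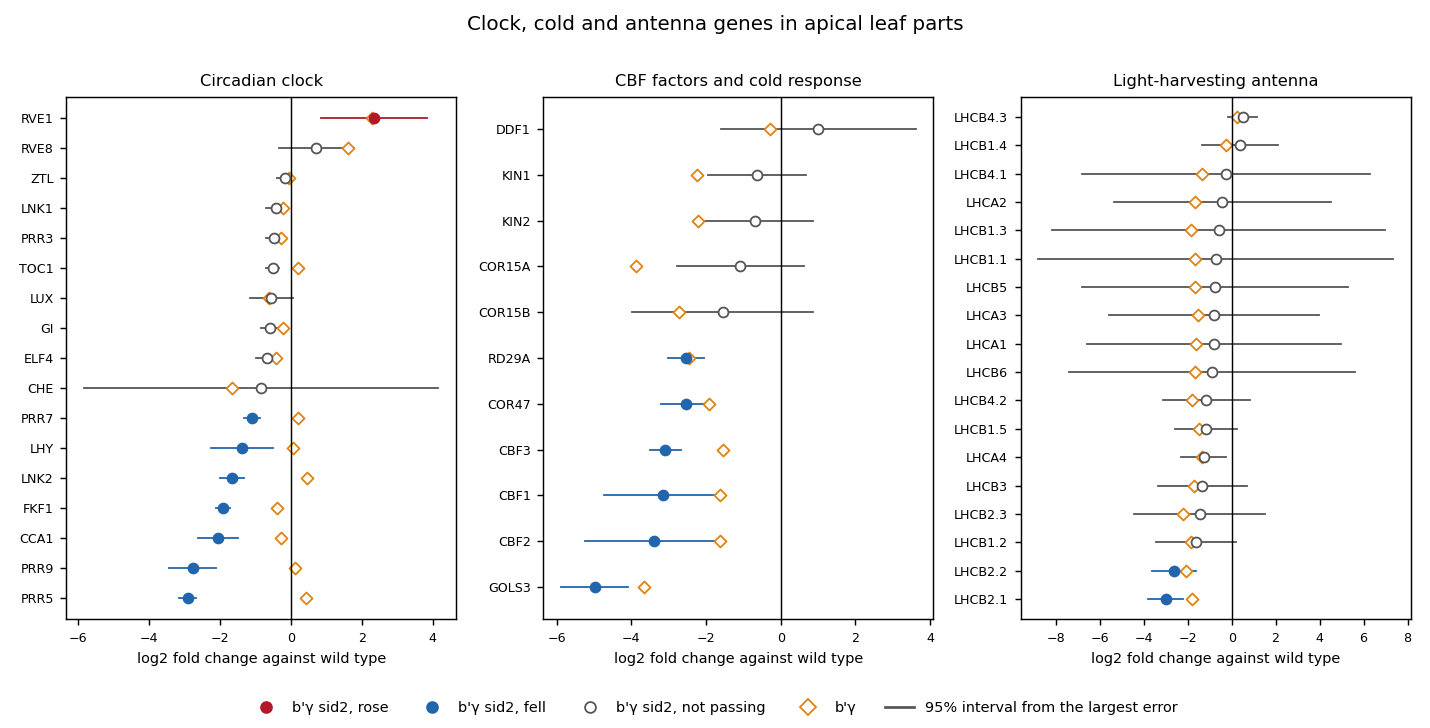
Deposited log2 fold changes against wild type (x axis) of listed clock, cold-response and antenna genes (rows) in b'γ sid2 (circles, filled where the gene rose or fell) and b'γ (diamonds), with lines for the 95% interval from the largest error. The 7 clock genes that fell lie between −2.90 and −1.08 in b'γ sid2 and between −0.38 and 0.46 in b'γ.

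Salicylic acid genes, which had high values in b'γ, had values on either side of 0 in b'γ sid2. Among 24 listed response genes, the median of the deposited values was −0.08 in b'γ sid2 and 2.78 in b'γ. PR1 had a deposited value of −4.32 (largest error 1.94, largest-error test adjusted p of 0.264) and 8.43 in b'γ, a difference of −12.75 that passed (adjusted p of 3.52e-06). Taking line differences in basal parts to be as large as in apical parts, PR1 passed against wild type too (adjusted p of 0.0422). Over all genes, 1223 were above b'γ (6.71%) and 1365 below it (7.49%) by the test of the difference and the 2-fold limit. In this list, 15 of 24 were below, among them WRKY38, the repressor gene NIMIN1 and FMO1, which makes the mobile immune signal N-hydroxypipecolic acid. The deposited values of WRKY38, NIMIN1 and FMO1 were −3.69, −2.54 and 1.97 in b'γ sid2 against 4.09, 3.09 and 8.10 in b'γ.

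Some salicylic acid genes did rise in b'γ sid2. The glucanase gene PR2 rose by 2.56 and the thaumatin-like PR5 by 2.79 (deposited log2 fold changes, largest errors 0.62 and 0.689, largest-error test adjusted p of 0.00394 and 0.00485), and both were below their values in b'γ, 4.49 and 4.82. BSMT1, which methylates salicylic and benzoic acid and is itself induced by jasmonate, rose by 4.32 and stood at −0.10 in b'γ. The glucosyltransferase UGT74F2, which makes the glucose ester of salicylic acid, fell by 1.46. In synthesis, EPS1, which acts at the last step, rose by 1.57 and ICS2, the second isochorismate synthase, fell by 1.63, while the transporter EDS5 at 0.64 and PBS3 at 0.66 did not pass.

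Genes of leaf senescence and of camalexin, the indole phytoalexin, were also below b'γ. SAG12, a cysteine protease gene that marks ageing leaves, had a deposited value of −0.02 and lay at the lowest recurring value of the table in b'γ sid2, against 13.02 in b'γ. Of 26 listed senescence genes, 16 were below b'γ, and the median was −0.10 against 1.82 in b'γ. The NAC factor ORS1 and the glutamine synthetase GLN1;4 fell by 1.73 and 2.07 against wild type. GLN1;4 was near the limit (largest-error test adjusted p of 0.0477) and lies outside a stretch of chromosome 5 with many raised genes. Its call is lost when that stretch is left out, which changes the adjustment over genes. The ribonuclease RNS1, which is induced by wounding and phosphate shortage, rose by 3.25. All 6 listed genes for camalexin and related indole cyanogenic compounds were below b'γ, with deposited values between −0.30 and 0.75 in b'γ sid2 and a median of 5.29 in b'γ. The smallest largest-error test adjusted p of the 6 against wild type was 1, which at largest errors of 0.526 to 1.14 does not show that they equalled wild type.

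**Figure D4:**
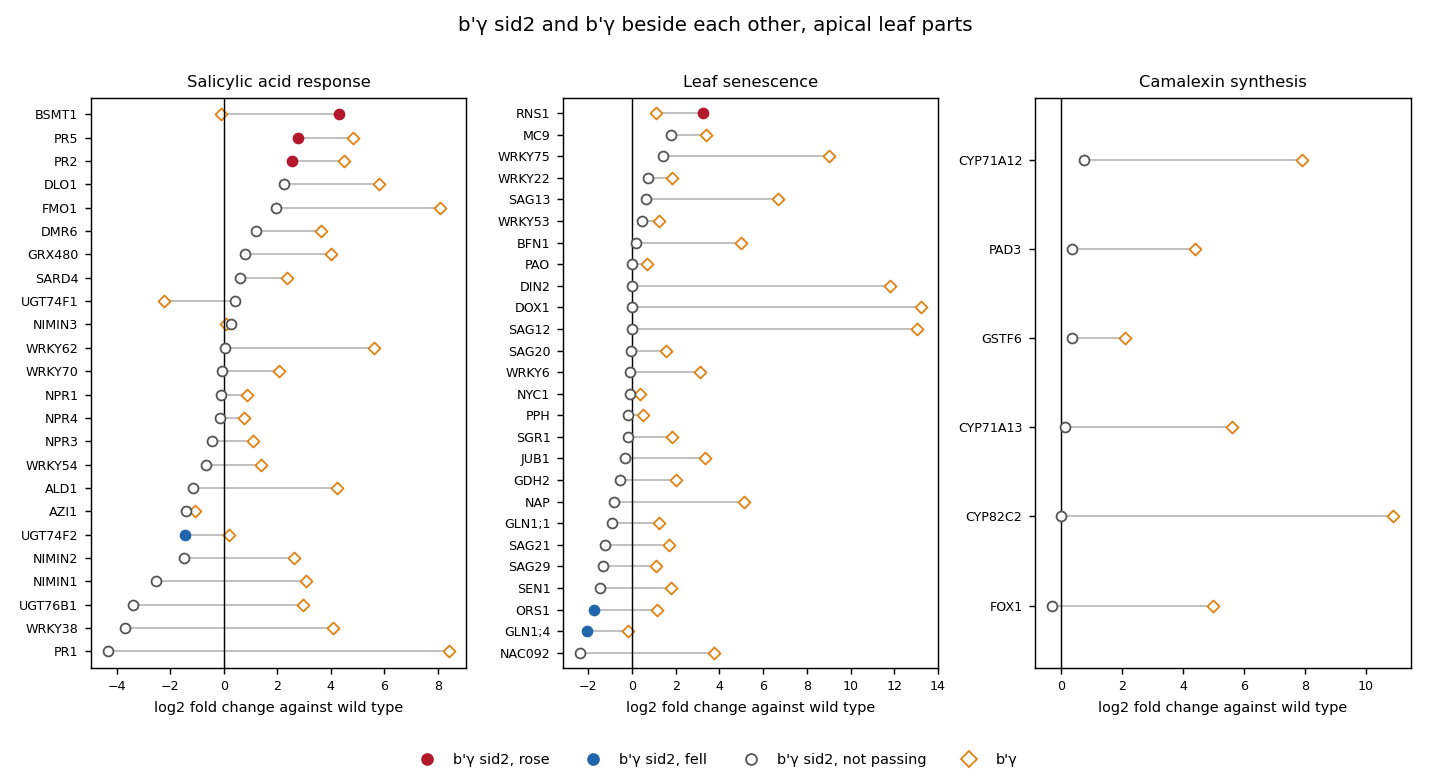
Deposited log2 fold changes against wild type (x axis) of listed genes (rows) of the salicylic acid response, leaf senescence and camalexin lists in b'γ sid2 (circles, filled where the gene rose or fell) and b'γ (diamonds), joined by a line per gene. PR1 lies at −4.32 in b'γ sid2 and 8.43 in b'γ, and SAG12 at −0.02 and 13.02.

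Of the 921 genes that rose or fell against wild type, 363 differed from b'γ: 167 were above it and 196 below it. Of these, 163 rose and lay above b'γ, 171 fell and lay below it, 25 rose and lay below it, and 4 fell and lay above it. Over all listed genes, 6.71% were above b'γ and 7.49% below it. Both tests use the same b'γ sid2 value, so genes picked for a high value tend to lie above b'γ. Those picked for a low value tend to lie below it, and the split by direction is no separate result. Across all 18231 genes, 3099 b'γ values lay past 2-fold above wild type and 2949 lay as far below it. For 38 of the 363 genes the value in b'γ was past 2-fold in the opposite direction, a smaller share than either. Of these, 16 rose in b'γ sid2, such as GL3, a factor for trichomes and anthocyanins, at 2.72 against −1.2, and NAMT1, a nicotinate methyltransferase, at 2.38 against −1.28. The other 22 fell, among them genes that respond to sugar shortage: AT3G15450 at −2.85 against 1.25, the trehalose phosphate synthase-like TPS11 at −2.09 against 1.1, and the raffinose synthase-like DIN10 at −1.42 against 1.71. TPS11 and DIN10 were the members that fell of 11 listed sugar-starvation genes, whose median was −0.90, and 7 of the 11 were below b'γ. The factors AtbZIP63 and AtbZIP1, which act downstream of the energy-sensing kinase SnRK1, fell by 1.74 and 1.22 against 1.12 and 1.27 in b'γ. In b'γζ and the complemented line, AT3G15450 had −1.34 and −1.63, TPS11 −1.31 and −1.19, and DIN10 −1.37 and −0.74. AtbZIP63 had −1.03 and −1.08 there, AtbZIP1 −0.87 and −0.8, GL3 1.22 and 0.59, and NAMT1 2.27 and −0.29. CPuORF4, an upstream reading frame with an entry of its own, has the same values as AtbZIP1 and is counted among the 38 as well. The values of GL3 and NAMT1 in b'γ did not pass against wild type (largest-error test adjusted p of 0.0965 and 0.268). Nor did those of ORS1, anac046, AT3G33528, AT4G16140, AT2G27420 and AT2G43590, which are also among the 38. NAMT1 lies in a stretch of chromosome 5 in which many genes were raised. GL3, NAMT1 and both bZIP genes were named after their values were seen.

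Of 8 listed heat-shock genes, 4 rose. HSFA2, a heat-stress transcription factor, rose by 2.36 in the deposited table, and the chaperones HSP90.1, HSP101 and HSP70 by 1.62, 1.39 and 1.09 (largest-error test adjusted p of 7.25e-05, 5.61e-08 and 0.00268). The median of the list was 1.06 and the lowest value −0.71. HSFA2 had a higher deposited value in b'γζ, 3.21, and in the complemented line, 2.93, than in b'γ sid2, and 0.34 in b'γ. Chaperones of the endoplasmic reticulum were 2-fold higher for 6 of 11 genes, with BIP3 at 2.33, and SHD alone rose (1.14); the median was 1.14 and the adjusted p of 5 others lay between 0.0593 and 0.0959. The receptor PEPR2, which senses danger peptides, alone of 18 immune receptor and signalling genes rose against wild type (2.06), and 9 of the 18 were below b'γ.

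Nutrient lists moved in single genes. The nitrate transceptor NRT1.1 rose by 1.39 and the nitrate reductase NIA2 by 1.29 of 5 listed nitrate genes. Of 8 phosphate genes, SRG3 rose by 1.08, a call lost when values are centred on the reference genes, and MGD3, which makes galactolipids that stand in for phospholipids, fell by 2.54. The floral repressor FLC rose by 2.22 (largest error 0.18, largest-error test adjusted p of 1.07e-12) and SOC1, a floral activator that FLC represses, fell by 1.74. Iron genes lay between −0.55 and 0.79, sulfur genes between −1.01 and 0.62 and flavonoid genes between −1.22 and 1.85 in the deposited table, the last with FLS1 at the top (adjusted p of 0.23). Abscisic acid and dehydration genes had a median of 0.01, with RD29B at −2.68 (adjusted p of 0.187) and RD20 at 1.56 (adjusted p of 0.61). Rapid touch and stress genes had a median of 0.38, with ZAT12 highest at 1.99 (adjusted p of 0.708). Reference genes, often used to scale such data, lay between −0.30 (UBQ10) and 0.54 (ACT2), with a median of 0.03.

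**Figure D5:**
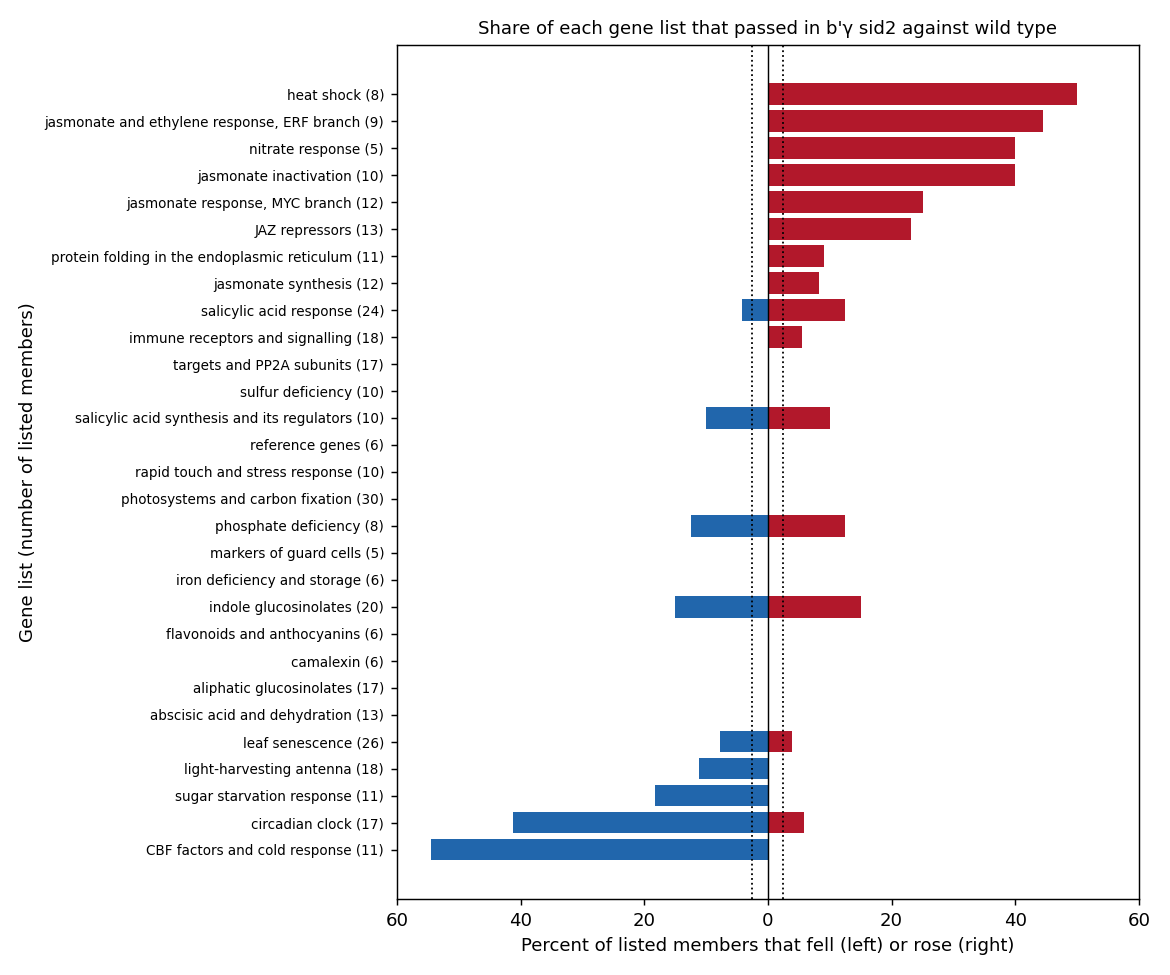
Percent of the listed members (number in parentheses) of each gene list with 5 or more listed genes (y axis) that rose (right, red) or fell (left, blue) in b'γ sid2 against wild type. Dotted lines mark the shares over all listed genes, 2.51% and 2.54%; of the lists drawn, which leave out those picked after their values were seen, cold response and the clock reach farthest left, and heat shock and the ERF branch farthest right.

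Genes of several other kinds stood at the ends of the ranking. TPS10 (AT2G24210), a monoterpene synthase that makes ocimene and myrcene, rose by 4.70 (largest error 0.81, largest-error test adjusted p of 3.8e-05) and stood at 0.15 in b'γ. The Kunitz protease inhibitor AT1G73325 rose by 4.83 against 0.35 in b'γ, the mannan synthase-like ATCSLA15 by 5.31 against 0.20, and PRN, a pirin, by 5.11 against 1.22. In b'γζ these genes had 2.26, 1.46 and 1.22, and in the complemented line 2.11, 2.72 and 3.31. AT4G16260, annotated as a hydrolase, rose by 4.60 and was lower than its value of 8.11 in b'γ. The transposable element gene AT5G35935 had a deposited value of 8.72, close to 8.78 in b'γζ and 8.88 in the complemented line, and 1.59 in b'γ. At the other end, the calcium-regulated kinases CIPK20 and CIPK25 fell by 4.33 and 3.58, the late embryogenesis abundant-like AT1G02820 fell by 3.85 and the unnamed AT1G66060 by 3.89. CIPK20 and AT1G02820 lay below their values in b'γ, −1.29 and −1.38, while CIPK25 at −3.47 in b'γ did not differ by the test of the difference (−0.10, 95% interval from the largest error −1.21 to 1.01).

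Other features of the table move with the calls. A stretch of chromosome 5 from AT5G03406 to AT5G05250 held 74 of the genes that rose and 1 that fell, of 164 listed there, with a median of 1.02 in b'γ sid2 and 0.96 in b'γ. Without it 380 genes rose and 458 fell, and no list member that rose or fell lies in it. The deposited corrected p of the interaction was under 0.05 for 42.4% of listed genes, for 18.6% of those that rose and for 32.6% of those that fell. The markers of myrosin cells, TGG1 at 2.07 and TGG2 at 3.15, did not pass against wild type but lay above b'γ, at −1.53 and −1.74, and the trichome factor GL2 rose by 1.05. Markers of dividing cells lay between −0.44 (CYCB1;1) and 0.55 (CDKB2;1), those of xylem at 0.88 and 1.48 and those of flowers between −1.60 and −0.69, none of them past the test, with adjusted p from 0.331 to 1. Their part in the results was not tested. Levels are not in the table, so whether a marker was present at all could not be read.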

How the data were processed

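RNA of pools of apical or basal leaf parts was sequenced in 50 libraries, and groups follow the genotype and leaf part in the labels. Per the submitters' processing notes, bcl2fastq and DESeq were used on the TAIR10 build; versions were not stated there. The 1 table used holds the authors' deposited log2 fold changes of 4 lines against wild-type apical parts, and 6 columns with the authors' deposited p-value for genotype, leaf part and their interaction, uncorrected and corrected. No log base is stated for the deposited fold changes. Base 2 was read from genes at the lowest recurring value in several lines: of 18 small recurring values above it, 14 have a partner 0.2 higher, which is 1 doubling in 1 of 5 libraries, against 1 with the step of natural logs and 1 with that of base 10. Depth is unknown, since no value per library is in the table, and no counting interval of expression, no count model and no spread between pools was computed.

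The deposited p-values hold for a gene over all lines. They were assumed to come from a layout of 5 lines by 2 leaf parts by 5 pools with 40 residual degrees of freedom. The column headers do not state the authors' model, and under another model the errors and calls could differ. For the largest-error test, F values (4 and 40 degrees of freedom) were recovered from the uncorrected p of genotype and of interaction. Together with the 4 fold changes, and with line means within 20 log2 units, they bound the residual variance of a gene. The largest variance gave the error of each difference of apical means, tested with 40 degrees of freedom and adjusted by Benjamini-Hochberg over 25801 genes, the number tested that the authors' correction implies. The largest variance grows where line differences lie in apical parts alone, so even a large change of that kind may not pass. The test was checked on simulated data. Differences from b'γ are differences of 2 deposited values.

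Names, places and promoter sequences are from RefSeq (TAIR10.1), in which 18153 of the 18231 identifiers were found. Promoter windows are the 250 bases before the annotated start, searched on both strands, and motif intervals are exact binomial 95% intervals, which cover counting error only. The 37 gene lists have 420 entries, 389 of them in the table, and the members and lists were chosen with earlier results of these data known. Named genes are the targets B'γ, B'ζ and ICS1, the markers PR1 and SAG12, the 10 largest and 10 smallest changes that passed away from the lowest recurring value, the 4 largest changes of lists with 3 or more passing members, and the 6 largest and 6 smallest differences from b'γ that passed both tests, 67 genes in all; other members are named where their list is described. Alternatives were other size limits and variances, centring, a stricter corrected p and leaving out genes. Python 3.11.15, numpy 2.4.6, pandas 2.3.3, scipy 1.17.1 and matplotlib 3.10.9 were used.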

Additional observations from a re-analysis of the deposited data

Results flagged for a closer look

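Genes named here passed against wild type and also differed between b'γ sid2 and b'γ by the largest-error test of the difference, which is the reason to look at them again. Both lines are compared with the same wild-type pools, so the differences are those of the deposited values of b'γ sid2 and b'γ.

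Above b'γ, the transposable element gene AT5G35935 differed by 7.12, the cysteine protease-like AT2G27420 by 5.17 (3.24 in b'γ sid2 and -1.93 in b'γ) and the mannan synthase-like ATCSLA15 by 5.11. The proline-rich AT4G16140 differed by 4.85 (2.63 and -2.21), the RING finger gene AT5G47610 by 4.82 (2.67 and -2.15) and the chitinase-like AT2G43590 by 4.79 (3.27 and -1.52). These last 3 genes and AT2G27420 were past 2-fold in opposite directions in the 2 lines. The b'γ values of AT4G16140, AT2G27420 and AT2G43590 did not pass against wild type (largest-error test adjusted p of 0.0535, 0.14 and 0.149). In b'γζ and the complemented line, AT5G47610 had 1.44 and 1.57, AT2G27420 1.45 and 0.93, and AT4G16140 0.92 and 1.16. AT2G43590 had 0.97 and 0.95 there, ATCSLA15 1.46 and 2.72, and AT5G35935 8.78 and 8.88.

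Below b'γ, AT3G15450 differed by -4.10, SIS by -3.77 (-2.17 in b'γ sid2 and 1.60 in b'γ), and the cation and proton exchanger ATCHX16 by -3.75 (-1.81 and 1.94). AT1G73810, a glycosyltransferase-like gene, differed by -3.68 (-1.90 and 1.78), the NAC factor anac046, known as an activator of chlorophyll breakdown, by -3.66 (-2.32 and 1.34), and the transposable element gene AT3G60170 by -3.51 (3.96 and 7.47). The first 5 of these fell in b'γ sid2 while their values in b'γ were past 2-fold higher, and AT3G60170 rose but lay below b'γ. For anac046 the b'γ value did not pass against wild type (largest-error test adjusted p of 0.0888). In b'γζ and the complemented line, AT3G15450 had -1.34 and -1.63, SIS -1.11 and -1.4, and anac046 -0.92 and -0.66. ATCHX16 had -0.44 and -0.38 there, AT1G73810 -0.36 and -0.37, and AT3G60170 5.01 and 3.19.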

How the results depend on the processing

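No paired analysis was possible because the deposited columns give 1 value per line and none per pool, so leaving out pools, other normalizations and count models were not run either. Against wild type, where 458 genes rose and 463 fell, the counts were 903 and 1048 with no size limit, 128 and 106 with a 4-fold limit, 906 and 818 if line differences in basal parts are taken to be as large as in apical parts, 1079 and 951 with the smallest variance allowed, and 1194 and 1014 with the 2-fold limit alone. For the difference from b'γ, where 1223 genes were higher and 1365 lower, the same settings gave 2008 and 2276, 469 and 783, 2801 and 2781, 2898 and 2854, and 2929 and 2878. A corrected genotype p under 0.01, centring on reference genes or on all listed genes, leaving out the chromosome 5 stretch or genes at the lowest recurring value, and adjustment over listed genes alone kept these counts within 1.5 times. The 67 named genes were run under both centrings, where none changed its side of the threshold, and in the equal-parts setting, where PR1 did. GLN1;4, which lies outside the chromosome 5 stretch, lost its call without that stretch. In windows of 150 bases, 5.7% of listed genes had a G-box, 1.14% a GCC box, 1.74% an evening element and 19.6% a W box. There, 16.5% of genes that rose had a W box, and of genes that fell 6.44% had a G-box, 8.97% an evening element and 16.3% a W box. Counts of lists rest on the error: in the equal-parts setting 8 genes of the ERF branch, 8 of jasmonate inactivation and 5 JAZ genes rose and 8 antenna genes fell, while the clock kept 7 that fell.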

Other observations

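Genes described here belong to groups that were picked after their values were seen, so their counts describe these groups and support nothing further. In DNA replication, of 40 listed genes, 20 were at least 2-fold higher in the deposited table, 16 rose, and the lowest value was -0.09, with a median of 0.97. Among them were the origin recognition subunit ORC3, which rose by 2.38, the helicase subunits MCM7 (2.37), MCM6 (2.24), MCM2 (2.14), MCM4 (2.03) and MCM5 (1.75), and ICU2, the catalytic subunit of polymerase alpha, which rose by 2.21 (largest error 0.449, largest-error test adjusted p of 4.74e-04). The ribonucleotide reductase subunits TSO2 and RNR1 rose by 1.52 and 1.17. The sliding clamp PCNA1 at 2.02 did not pass (adjusted p of 0.128), and the clamp loader genes RFC1 to RFC5 lay between 0.08 and 0.34. The median of the group in b'γ was 0.71, and 1 gene, TSO2, differed between the lines. Markers of mitosis did not share these values: KNOLLE stood at 0.21, CDKB2;1 at 0.55 and CYCB1;1 at -0.44. If line differences in basal parts are taken to be as large as in apical parts, 19 replication genes rose, and 16 rose without the chromosome 5 stretch.

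Some genes of light and UV-B signalling rose in b'γ sid2. HY5, a factor that promotes greening in light, rose by 1.69, the photolyase PHR1 by 1.66, the UV-B repressors RUP2 and RUP1 by 1.27 and 1.24 and the cryptochrome CRY3 by 1.24, and these 5 of 11 listed genes were all above b'γ, where they lay between -0.19 and 0.69. CO, the photoperiod factor that activates flowering, rose by 3.26 (largest error 0.332, largest-error test adjusted p of 5.67e-10) and CDF2 by 2.0, with values of 0.13 and 1.09 in b'γ. Genes of alcoholic fermentation and sucrose cleavage fell: all 4 that are listed passed, with SUS1 down by 2.02, ADH1 by 2.0, PDC1 by 1.61 and PDC2 by 1.23. Of 7 listed dehydrins, LTI30 fell by 2.84, COR47 by 2.55, ERD10 by 1.59 and HIRD11 by 1.16. Jacalin lectin genes, which bind myrosinase and respond to jasmonate, rose for 3 of 7, with JAL23 at 4.02 and JR1 at 2.69. The GDSL esterase genes AT1G54000, AT1G54010 and AT1G54020, neighbours on chromosome 1, rose by 3.26, 3.80 and 4.49. HPL1, annotated as a hydroperoxide lyase, lies near B'γ on chromosome 4 and rose by 2.77 against 0.43 in b'γ. Its values in b'γζ and the complemented line were 1.33 and 1.38.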
